A study of Mus musculus domesticus with 6 samples.

Results

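The genes described here are named for the gene they face: each symbol is that of an annotated mouse gene followed by os, for opposite strand, and optional digits. The gene behind the name is called the host below. A gene was included if its expected count, the number of reads that the counting model assigned to it, was at least 10 in at least 2 of the 6 libraries, so the members were chosen by name and by measured counts. Of 294 annotated opposite-strand genes, 35 met that minimum, each with a different host, and 259 did not. All 35 lay on the strand opposite their host in the GENCODE M21 annotation. The word noncoding, often used for genes with such names, held for 30 of them, of which 24 were annotated as antisense. The other 5, Slc7a6os, Wdr83os, Cebpzos, Ccpg1os and Brd3os, are annotated as protein coding.

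Mammalian promoters often start transcription in both directions, and genes on the opposite strand may begin beside the host's start site or run through its body. Many RNAs made upstream of promoters or antisense to genes are unstable, and the nuclear RNA exosome, which degrades RNA from its 3′ end, is one of the complexes known to remove them. Some opposite-strand transcripts are spliced and stable, and a few encode proteins.

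Total RNA was measured in BFU-E, burst-forming progenitors at an early step of the red blood cell lineage, sorted from the fetal livers of E14.5 mouse embryos as lineage-negative, Kit-positive, GFP-positive cells low in CD24 and CD71. The groups were 3 libraries with genotype Exosc3 fl/fl Cre+ and 3 with Exosc3 fl/fl Cre-, so every embryo carried the floxed alleles of Exosc3, which encodes a structural subunit of the exosome. The strain is labelled Exosc3-floxed and Vav1-Cre, a transgene whose promoter is active in blood cells. The design places the samples in 3 litters, with a pair from each, but the labels do not say which libraries form a pair. The groups were therefore compared without pairs, and the replicate numbers served as a block in an alternative fit only. The labels also do not say how the GFP gate was met in Cre- embryos.

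The libraries held 89629949 to 124931215 expected counts in Cre+ and 96780246 to 122278764 in Cre-. The transcript of eGFP had 3311 to 4884 counts in Cre+ libraries and 0 to 197 in Cre- libraries. All 12 erythroid progenitor markers were counted, with summed levels of 2670 to 3230 CPM, the count scaled to library size, in Cre+ and 2310 to 2730 CPM in Cre-. Of these 12, 1 passed in the edgeR comparison of the groups given below, beside 16 of 13117 genes of every kind (0.122%). Neutrophil and monocyte markers, of which Ly6c2, S100a8 and S100a9 were at 0 in every library among 11, summed to 232 to 519 CPM in Cre+ and 569 to 1490 CPM in Cre-. Lymphoid markers, of which Dntt, Cd3e, Vpreb1 and Igll1 were at 0 among 10, summed to 1.59 to 8.93 CPM in Cre+ and 41.4 to 122 CPM in Cre-. Endothelial and stromal markers, of which Col3a1, Lyve1 and Stab2 were at 0 among 8, had overlapping sums. These were 11.7 to 33.6 CPM in Cre+ and 29.4 to 61.6 CPM in Cre-. In the same edgeR comparison none of the 7 tested neutrophil and monocyte markers passed. Nor did any of the 5 tested lymphoid or the 4 tested endothelial and stromal markers. The part of these other cell types in the results below was not tested, and in bulk RNA fewer cells of a type and less RNA per cell cannot be told apart. P-values set the difference between the groups against the spread of these 6 libraries within the groups. In a fit without pairs, differences between litters are part of that spread.

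The sequences below show how an opposite-strand RNA can pair with its host's transcript, for the 3 genes that were at 0 in every library of 1 group and for 3 genes with long overlaps. They are from the GENCODE M21 transcripts, 5′ to 3′, and capitals mark bases that are complementary to the host's transcript.
Mkln1os, transcript bases 10 to 99: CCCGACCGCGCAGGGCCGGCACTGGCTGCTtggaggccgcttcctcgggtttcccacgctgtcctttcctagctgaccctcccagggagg
Asb17os, transcript bases 39 to 128: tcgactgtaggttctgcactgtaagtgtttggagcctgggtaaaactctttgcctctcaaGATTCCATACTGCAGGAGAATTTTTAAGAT
Nr6a1os, transcript bases 1 to 60: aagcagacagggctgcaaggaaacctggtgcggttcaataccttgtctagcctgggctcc
Wdr83os, transcript bases 1 to 30: GCTTTGCACTTCCGTGCAAAATTTCAGCGC
Zfhx2os, transcript bases 3162 to 3191: GGCAGCCAGAGACGGCGCTGAGGTATCGTG
Zbtb11os1, transcript bases 245 to 274: ACCTCGCCACCAGTAGGTCTTGGACAGGTC

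In Mkln1os the complementary stretch is 39 bases long, and it pairs the first bases of both transcripts, so that their 5′ ends overlap and their bodies run apart. In Asb17os the complementary run starts at base 99 and is 114 bases long. No run of at least 25 complementary bases was found for Nr6a1os, whose gene lies within the body of its host without shared exon bases. The runs were 326 bases in Wdr83os, 491 in Zbtb11os1 and 1214 in Zfhx2os, the longest of all. In total 20 of the 35 members had a run, from 39 bases upward, and 15 had none. Exon bases shared with the host exceeded those outside it in 3 members, at 73.1% of exon bases for Zfhx2os, 56.8% for Prox2os and 52.3% for Wdr83os. The strand setting of the counting is not given in the sources used here, so in the 20 members that share exon bases with the host, reads in the shared bases cannot be told apart.

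Exosc3 (ENSMUSG00000028322), the targeted gene, was at 26.8, 22.1 and 30.2 CPM in Cre+ libraries and at 51.9, 44.3 and 48.0 CPM in Cre- libraries. The groups did not overlap, and the Cre+ mean of 26.4 ± 4.07 CPM was 54.8% of the Cre- mean of 48.1 ± 3.8 CPM (SD, n = 3 each). On the log2 scale the fold change was -0.87, and its standard error (SE) was 0.22. The adjusted p was 0.259 in edgeR's quasi-likelihood test and 0.00325 in DESeq2, with a range of 0.00325 to 0.582 over the alternatives. Which exons the floxed part spans is not given in the labels, and the counts cover the whole gene.

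Most opposite-strand genes were not seen in these cells, and most members were seen in some libraries and not in others. Of the 259 genes under the minimum, 242 had 0 counts in every library and 17 were seen in 1 library only. Among the members, 11 were above 0 in all 6 libraries, 8 in 5, 1 in 4, 11 in 3 and 4 in 2. Of the 210 values that the members had over the libraries, 59 were 0, which were 24 of 105 in Cre+ and 35 of 105 in Cre-. The values above 0 ran from 16 to 6921 counts with a median of 295. Counts are reads, not molecules: genes of any kind seen in exactly 1 library carried 107 reads at the median, and 21 of the members' values above 0 were under that number.

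**Figure D1:**
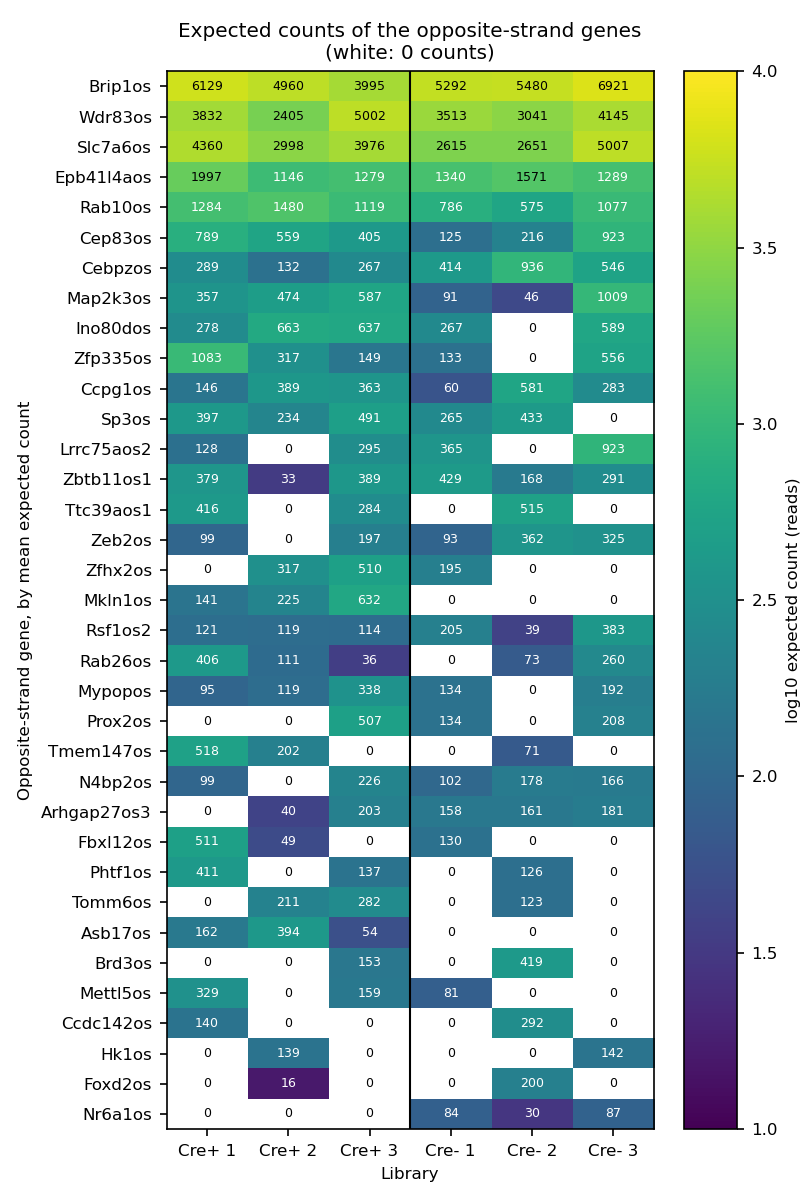
Expected counts of the 35 opposite-strand genes (rows, by mean count) in the 3 Cre+ and 3 Cre- libraries (columns), with colour giving the log10 count and white giving 0. Brip1os, at the top, has 3995 to 6129 counts in Cre+ and 5292 to 6921 in Cre-, while 24 of the remaining genes have a 0 in at least 1 library.

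At the edge of the minimum, Foxd2os had a second-highest count of 16, Nr6a1os of 84 and Fbxl12os of 130. Just outside it the second-highest count was 0 for each gene. The highest of these, Arhgap27os2, had 560 counts in Cre- replicate 2 and none elsewhere, and Man2c1os had 421 in Cre+ replicate 2 and none elsewhere. Arf4os, with 257 counts in Cre- replicate 1, came next.

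The number of members above 0 was 27, 25 and 29 in Cre+ libraries and 24, 24 and 22 in Cre- libraries. Every Cre+ library thus held more members than any Cre- library, by 1 gene at the nearest. Mkln1os and Asb17os count in every Cre+ library and Nr6a1os in every Cre- library, and each met the minimum through that group alone. Without these genes the nearest libraries of the groups would tie. For the 30 noncoding members the numbers were 23, 21 and 24 in Cre+ and 20, 19 and 18 in Cre-. Here too the nearest libraries would tie without these genes. Over all 294 annotated opposite-strand genes they were 32, 26 and 32 in Cre+ and 28, 25 and 25 in Cre-, where the groups overlap. For all 2958 genes of the antisense biotype the groups met only in a tie at 177, with 197, 181 and 177 above 0 in Cre+ and 156, 141 and 177 in Cre-. Their summed level was higher in every Cre+ library, at 1794.1, 1891.5 and 2179.9 CPM in Cre+ and 1523.3, 1431.6 and 1359.4 CPM in Cre-, which was not tested. How evenly these genes carry the sum was not examined, and no other biotype was set beside it. Genes of every kind above 0 numbered 13553, 13013 and 13427 in Cre+ and 13636, 13075 and 13972 in Cre-. The members' summed level was 200.5, 200.4 and 197.6 CPM in Cre+, against 176.7, 174.5 and 205.3 CPM in Cre-, with the highest sum in a Cre- library. Since the members were chosen by counts in these libraries, these numbers are a description.

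Position was not part of the rule, although reads of a host in shared exon bases could enter the counts that were, and this was not tested. With start sites on opposite strands within 1 kb called head to head, 15 of the 35 members (42.9%) were head to head, 16 (45.7%) overlapped the host in another way and 4 (11.4%) lay apart from it. Of the 259 genes under the minimum, 55 (21.2%) were head to head, 188 (72.6%) overlapping and 16 (6.18%) apart. The hosts were themselves more expressed where the opposite-strand gene was counted, with a median of 21.4 TPM, a level scaled for transcript length, for the members' hosts and 0.273 TPM for the others. Of the hosts of the genes under the minimum, 102 of 259 were at 0 in all libraries, compared with 3 of the members' 35, which were Foxd2, Mypop and Epb41l4a. These shares and medians are descriptions, with no test.

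**Figure D2:**
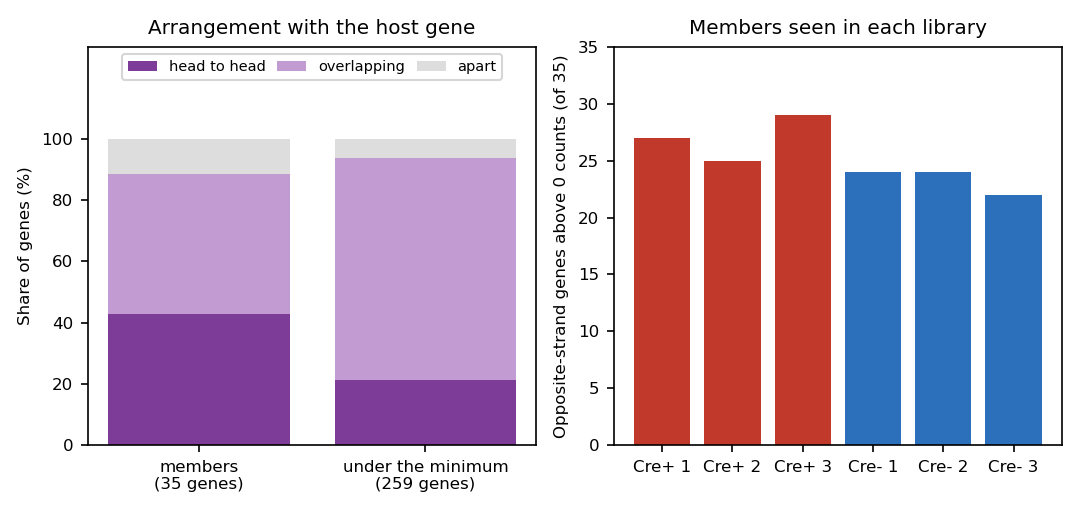
Left, stacked bars of the share (%) of genes head to head with, overlapping or apart from the host, for the 35 members and for the 259 genes under the count minimum; 42.9% of the members and 21.2% of the others are head to head. Right, bars of the number of the 35 members above 0 counts in each library, at 25 to 29 in Cre+ (red) and 22 to 24 in Cre- (blue). Mkln1os and Asb17os are part of every Cre+ bar and Nr6a1os of every Cre- bar, through their selection.

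Cre+ was then compared with Cre- over all genes, and no opposite-strand gene passed in the edgeR test. Of 13117 genes tested, 16 were higher in Cre+ (0.122%) and 0 lower (0.0%) at an adjusted p under 0.05. With the replicate numbers as a block, 38 were higher and 18 lower. Of the members 31 were tested and 0 passed in either direction. Hk1os, Foxd2os, Ccdc142os and Brd3os had too few counts to be tested, and each of them was above 0 in 1 library of each group. An unadjusted p under 0.05 was reached by 3 members, Mkln1os, Asb17os and Nr6a1os, against 8.23% of all genes. Each of these 3 was at 0 in 1 whole group and met the count minimum through the other group alone, so a difference was built into their selection, and their p-values here and below describe it rather than test it. In DESeq2, where 1.81% of genes with an adjusted p were higher in Cre+ and 1.68% lower, Mkln1os and Asb17os passed as higher, none passed as lower, and limma-voom called none. Map2k3os and Tomm6os were given no adjusted p by DESeq2.

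By sign, 22 of the 31 tested members had a positive log2 fold change and 9 a negative one. Their median was 0.52, beside -0.01 for all tested genes and -0.03 for the 31 tested hosts. The members' values were imprecise, with a median SE of 2.04 on the log2 scale, compared with 0.23 for the hosts and 0.38 for all tested genes. For the 11 members seen in every library the median was 0.04, and for the 20 tested members with a 0 in some library it was 0.91, with median SEs of 0.96 and 2.65. The 27 tested noncoding members had a median of 0.58 and the 4 tested protein-coding ones 0.04. The 14 tested head-to-head genes, 11 of them positive, and the 14 overlapping ones, 8 of them positive, both had a median of 0.54. The 3 genes that lie apart were all positive, with a median of 0.16. The members' median was 1.01 with the replicate numbers as a block, 0.76 with limma-voom and 0.18 with effective lengths as offsets. Leaving out 1 library at a time gave medians of all tested members from 0.12 (without Cre- replicate 1) to 0.43 (without Cre+ replicate 2). The count filter was rerun in each of these fits, so the members tested could differ from those behind 0.52. They were 0.15 without Cre+ replicate 3, 0.22 without Cre- replicate 3, 0.23 without Cre+ replicate 1 and 0.25 without Cre- replicate 2. Members that passed the count filter only through the group in which they were high had to differ, so these medians are descriptions. Other genes named for an antisense or overlapping transcript were few: of 5 with a symbol ending in as, 3 were tested with a median of -0.05, and of 4 ending in ot, 2 were tested with a median of 0.23.

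Groups of 3 libraries did not overlap for 5 members. Mkln1os, Asb17os and Rab10os were higher in every Cre+ library, 3 of 31 tested members beside 7.53% of all tested genes. For Rab10os this held in CPM and not in the deposited TPM, which is scaled for effective length. Nr6a1os and Cebpzos were lower in every Cre+ library, beside 7.66% of all tested genes. Mkln1os and Asb17os had at least 10 counts in at least 2 Cre+ libraries and 0 in all Cre- libraries, a pattern of 1.64% of genes above the same count minimum. Nr6a1os had the reverse pattern, which 2.34% of genes showed.

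Mkln1os begins head to head with Mkln1, which encodes muskelin, a subunit of the CTLH ubiquitin ligase complex. It had 141, 225 and 632 counts in Cre+ libraries, which are 1.14, 2.54 and 5.48 CPM, and 0 counts in the Cre- libraries. The Cre+ libraries differed widely among themselves, and none of the Cre- libraries held a read. The Cre+ mean of 3.05 ± 2.22 CPM (SD, n = 3) was 109 times the level of 3 reads per library, a limit set for 0 counts. That limit covers the counting error of reads only and lies below the 107 reads given above. The 109 is therefore not a lower bound on the difference. The edgeR p was 0.00269 and the adjusted p 0.249, while DESeq2 gave 1.18e-05, and the range over the alternatives was 1.18e-05 to 0.582. Its host Mkln1 was at 132, 121 and 95.4 CPM in Cre+ and at 98.7, 94.3 and 125 CPM in Cre-, where the groups overlap. The host's log2 fold change was 0.13 with an SE of 0.17 and an adjusted p of 0.965 by edgeR.

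Asb17os overlaps Asb17, which encodes an ankyrin repeat protein with a SOCS box and is known for its expression in testis. It had 162, 394 and 54 counts in Cre+ libraries (1.3, 4.45 and 0.468 CPM) and 0 counts in each Cre- library. The Cre+ mean of 2.08 ± 2.1 CPM (SD, n = 3) was 74.2 times the level of 3 reads per library, which again is not a lower bound. The lowest Cre+ library was under the 107 reads given above. The edgeR p was 0.00621 and the adjusted p 0.302, with 0.00115 in DESeq2 and a range of 0.00115 to 0.648 over the alternatives. Asb17 itself was at 5.8, 2.79 and 0 CPM in Cre+ and at 1.47, 2.05 and 0.539 CPM in Cre-. The host was thus both highest and absent within Cre+, and its log2 fold change of 1.08 had an SE of 1.99. Asb17os shares 11.7% of its exon bases with it.

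Nr6a1os lies within Nr6a1, which encodes germ cell nuclear factor, an orphan nuclear receptor. It had 0 counts in each Cre+ library and 84, 30 and 87 counts in Cre- libraries, which are 0.872, 0.286 and 0.7 CPM. All of its counts were below 107, and its Cre- mean was 0.62 ± 0.301 CPM (SD, n = 3). The edgeR test gave a p of 0.0112, an adjusted p of 0.375 and 0.236 in DESeq2, in a range of 0.236 to 0.694. Its Cre- mean was 22.1 times the level of 3 reads per library, which is not a lower bound at counts this low. Nr6a1 was at 3.78, 1.59 and 3.04 CPM in Cre+ and at 3.45, 0 and 4.6 CPM in Cre-, so the host's groups overlapped while those of the gene within it did not.

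**Figure D3:**
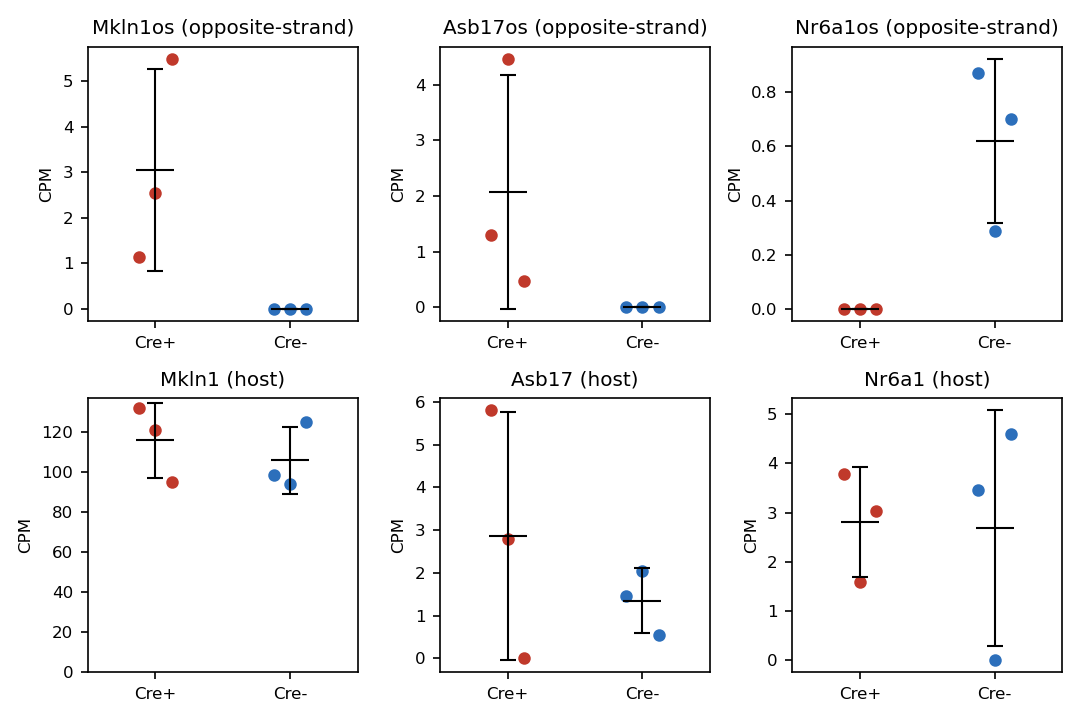
CPM of Mkln1os, Asb17os and Nr6a1os (top) and of their hosts (bottom) in each Cre+ (red, left) and Cre- (blue, right) library, with bars for the mean ± SD of 3 libraries. The top panels have 1 group at 0 throughout, whereas the host panels show overlapping groups, such as 95.4 to 132 CPM in Cre+ and 94.3 to 125 CPM in Cre- for Mkln1.

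Of the other members whose groups did not overlap, Cebpzos is a coding gene that overlaps Cebpz, a gene for a CCAAT-box binding protein, with which it shares 15.1% of its exon bases. Cebpzos had 2.33, 1.49 and 2.32 CPM in Cre+ and 4.3, 8.93 and 4.39 CPM in Cre-. Its log2 fold change was -1.52 with an SE of 0.96 and an adjusted p of 0.829 by edgeR, and Cre- replicate 2 held its highest value. Cebpz was at 171 to 207 CPM in Cre+ and 162 to 185 CPM in Cre-, with a log2 fold change of 0.10 and an SE of 0.11. Rab10os overlaps Rab10, which encodes a small GTPase of membrane traffic. Rab10os was at 10.3, 16.7 and 9.7 CPM in Cre+, with a mean of 12.3 ± 3.88, and at 8.16, 5.49 and 8.67 CPM in Cre-, with a mean of 7.44 ± 1.71 (SD, n = 3 each). Its log2 fold change of 0.72 had an SE of 0.49 and an adjusted p of 0.851 by edgeR. The value was 0.43 without Cre+ replicate 2 and 0.08 with effective lengths as offsets. In TPM, Rab10os was at 4.4, 12.51 and 3.67 in Cre+ and at 6.77, 5.82 and 7.29 in Cre-, so that only Cre+ replicate 2 lay above the Cre- libraries and the other Cre+ libraries lay below them. Rab10 was at 92.8, 85.7 and 111 CPM in Cre+ and at 109, 109 and 140 CPM in Cre-, a log2 fold change of -0.31 with an SE of 0.16. Rab10os shares 2.3% of its exon bases with Rab10.

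The 3 highest members per length were counted in every library, and their levels overlapped between the groups. Epb41l4aos had the highest mean level, 124 TPM, and its host Epb41l4a, a gene of the protein 4.1 family, had 0 counts in every library. It was at 16.1, 13.0 and 11.1 CPM in Cre+ and at 13.9, 15.0 and 10.4 CPM in Cre-, with means of 13.4 ± 2.52 and 13.1 ± 2.41 CPM (SD, n = 3 each). Cre+ over Cre- was 0.03 on the log2 scale with an SE of 0.38. Its effective length in the files is only 122 bases, which raises its TPM for the same counts. Wdr83os, which encodes an endoplasmic reticulum protein that helps fold membrane proteins, averaged 69.0 TPM, above the 29.8 TPM of its host Wdr83. It was at 30.9, 27.2 and 43.4 CPM in Cre+ and at 36.5, 29.0 and 33.4 CPM in Cre-, a log2 fold change of 0.04 with an SE of 0.25. Both its highest and its lowest value were in Cre+. Slc7a6os, whose yeast relative Iwr1 brings RNA polymerase II into the nucleus, averaged 35.4 TPM beside 17.1 TPM for Slc7a6, an amino acid transporter gene. It was at 35.1, 33.9 and 34.5 CPM in Cre+ and at 27.2, 25.3 and 40.3 CPM in Cre-, a log2 fold change of 0.16 with an SE of 0.25. The Cre+ libraries were close together and lay inside the range of the Cre- ones. The host's mean was uneven, with Slc7a6 at 7.89, 44.19 and 19.93 TPM in Cre+ and 11.99, 9.55 and 9.35 TPM in Cre-. In Cre+ replicate 2 the host was above Slc7a6os, which was at 37.74 TPM there.

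Brip1os starts head to head with Brip1, the gene of a DNA helicase of the Fanconi anaemia pathway, and had the most counts of all members. It was at 49.3, 56.1 and 34.6 CPM in Cre+ and at 55.0, 52.3 and 55.7 CPM in Cre-, with a log2 fold change of -0.22 and an SE of 0.21. Cre+ replicate 3 was the lowest library. Brip1 was at 29.9, 19.8 and 33.2 CPM in Cre+ and 27.0, 24.3 and 39.7 CPM in Cre-, with overlapping groups. Per length, Brip1os averaged 13.8 TPM, Brip1 5.22 TPM and Cebpzos 15.6 TPM. Rab26os, Ttc39aos1 and Sp3os also ranked high per length, at 24.9, 17.8 and 14.1 TPM on average, but with short effective lengths of 96.4, 237 and 231 bases and with a 0 in at least 1 library. Rab26os was at 82.73, 32.51 and 2.04 TPM in Cre+ and at 0, 17.93 and 14.17 TPM in Cre-, so Cre+ held both very high and low values. Ttc39aos1 had 416, 0 and 284 counts in Cre+ and 0, 515 and 0 in Cre-. Sp3os, which overlaps the transcription factor gene Sp3, had 397, 234 and 491 counts in Cre+ and 265, 433 and 0 in Cre-. No test between genes was made.

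The remaining genes among the 12 smallest edgeR p-values had log2 fold changes less than 2 SEs from 0, with overlapping groups. Tmem147os, head to head with an endoplasmic reticulum membrane protein gene, had 518, 202 and 0 counts in Cre+ and 0, 71 and 0 in Cre-, a log2 fold change of 3.25 with an SE of 2.96. Mettl5os lies beside Mettl5, which encodes an rRNA methyltransferase, and had 329, 0 and 159 counts in Cre+ and 81, 0 and 0 in Cre- (log2 fold change 2.26, SE 2.90). Both were seen in fewer Cre- than Cre+ libraries. Tomm6os, head to head with a gene for a small subunit of the mitochondrial outer membrane translocase, had 0, 211 and 282 counts in Cre+ and 0, 123 and 0 in Cre- (log2 fold change 2.04, SE 2.92). Zfhx2os, over the zinc finger homeobox gene Zfhx2, had 0, 317 and 510 counts in Cre+ and 195, 0 and 0 in Cre- (log2 fold change 1.98, SE 2.83). In each of these 4 genes 1 library held all of the Cre- reads. Leaving out 1 library gave values from 2.33 to 10.88 for Tmem147os and from 1.3 to 10.23 for Mettl5os. The values ran from 1.45 to 10.46 for Tomm6os and from 1.39 to 11.22 for Zfhx2os. Zeb2os and Lrrc75aos2 had negative values, of -1.49 (SE 1.99) and -1.64 (SE 2.36). With 1 library left out, Zeb2os ran from -2.55 (without Cre+ replicate 3) to -0.90 (without Cre+ replicate 2). Lrrc75aos2 ran from -2.85 (without Cre+ replicate 3) to -0.66 (without Cre- replicate 3). Zeb2os had 99, 0 and 197 counts in Cre+ and 93, 362 and 325 in Cre-. Its host Zeb2, a repressor of transcription needed in blood formation, was at 200.0, 165 and 220.0 CPM in Cre+ and at 229, 245 and 278 CPM in Cre-, without overlap. In TPM the groups of Zeb2 overlapped. Zeb2 had a log2 fold change of -0.36 with an SE of 0.13, an edgeR p of 0.0209 and an adjusted p of 0.466, and was the only one of 31 tested hosts with an unadjusted p under 0.05. Lrrc75aos2 had 128, 0 and 295 counts in Cre+ and 365, 0 and 923 in Cre-.

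**Figure D4:**
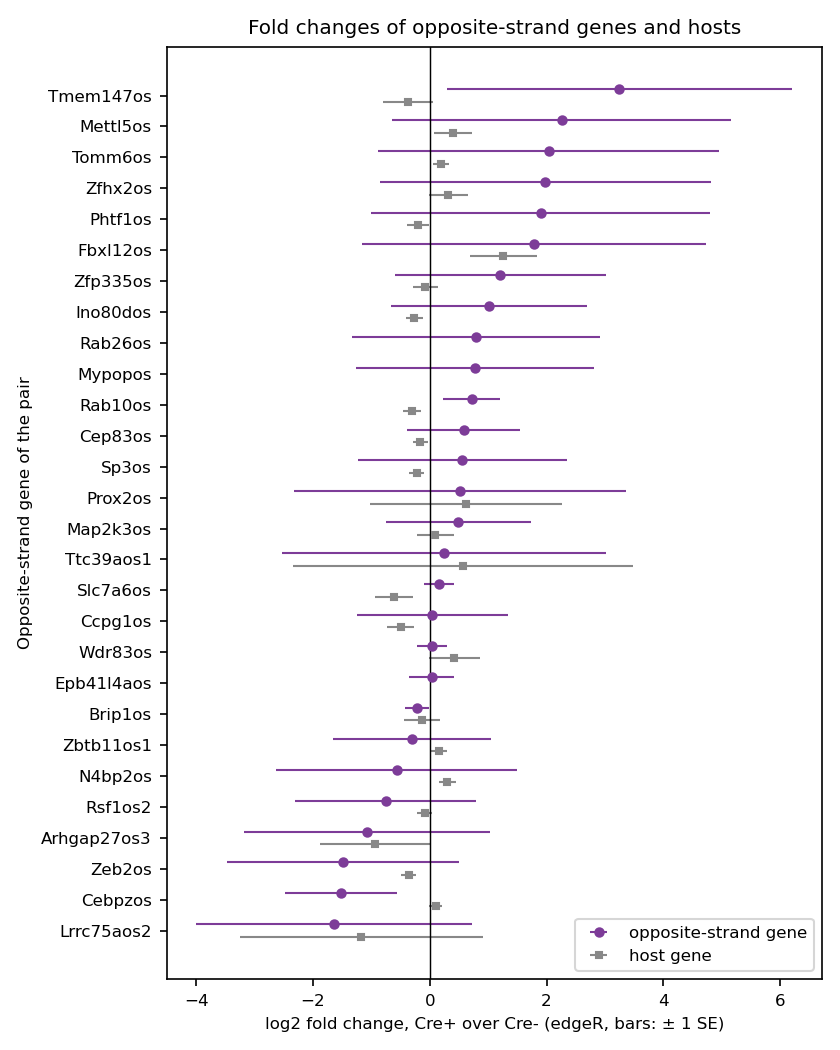
Log2 fold change of Cre+ over Cre- from edgeR for the tested opposite-strand genes with reads in both groups (purple circles) and for their tested hosts (grey squares), with bars for ± 1 SE, ordered by the opposite-strand gene's value. The bars of the opposite-strand genes are long, with a median SE of 2.04 over all 31 tested, and those of most hosts are short, with a median of 0.23.

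The other 17 members had overlapping groups as well. For the 13 of them that were tested, log2 fold changes ran from -1.07 to 1.90, 9 positive and 4 negative, with SEs of 0.97 to 2.95. Map2k3os, beside the gene of a kinase that activates p38, had 357, 474 and 587 counts in Cre+ and 91, 46 and 1009 in Cre-, with the highest value in Cre-. Ino80dos, which overlaps the start of the gene of an INO80 chromatin remodeller subunit, had 278, 663 and 637 counts in Cre+ and 267, 0 and 589 in Cre-. Cep83os, beside a centriole protein gene, had 789, 559 and 405 counts in Cre+ and 125, 216 and 923 in Cre-. In each of these 3 genes at least 1 Cre- library was above the lowest Cre+ library. The coding gene Ccpg1os, beside the gene of an endoplasmic reticulum autophagy receptor, had 146, 389 and 363 counts in Cre+ and 60, 581 and 283 in Cre-. Zbtb11os1 had 379, 33 and 389 counts in Cre+ and 429, 168 and 291 in Cre-, and Rsf1os2 had 121, 119 and 114 in Cre+ and 205, 39 and 383 in Cre-. Both were seen in every library, with lowest counts of 33 and 39. Beside Ino80dos, the members with a 0 in at least 1 library were Fbxl12os, Zfp335os, Arhgap27os3, Mypopos, Phtf1os, Prox2os and N4bp2os among those tested, and the 4 untested genes. Among the untested ones, Brd3os, which lies apart from its host, the bromodomain gene Brd3, had 153 counts in Cre+ replicate 3 and 419 in Cre- replicate 2. Hk1os, within the hexokinase gene Hk1, had 139 counts in Cre+ replicate 2 and 142 in Cre- replicate 3.

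Each member was then set beside its host. Over the 32 pairs whose host was above 0, the opposite-strand gene's mean TPM was at the median 18.8% of the host's, and in 11 of 35 pairs it was above the host's. Among the 28 pairs with both genes tested, 15 had log2 fold changes of the same sign and 13 of opposite sign. No host passed in edgeR, 1 of 31 had an unadjusted p under 0.05, and 15 were positive and 16 negative. The hosts of all annotated opposite-strand genes that were tested, 130 of 251, had the same median of -0.03. Fbxl12, an F-box protein gene, was higher in every Cre+ library, at 9.14, 14.3 and 11.6 CPM in Cre+ and 2.49, 5.49 and 6.61 CPM in Cre-, with an adjusted p of 0.624 by edgeR. In CPM, Zeb2, Sp3 and Ccpg1 were lower in every Cre+ library. Sp3 was at 98.8, 88.8 and 98.4 CPM in Cre+ and at 108, 119 and 107 CPM in Cre-, and Ccpg1 at 37.2, 32.6 and 32.9 CPM in Cre+ and at 38.8, 44.5 and 62.1 CPM in Cre-. These 4 were 1 host higher and 3 lower of 31, beside 7.53% and 7.66% of all tested genes. In the deposited TPM only Ccpg1 of these stayed apart, at 14.26 to 15.6 in Cre+ and 16.18 to 28.08 in Cre-. Fbxl12 overlapped in TPM, at 4.04 to 5.67 in Cre+ and 1.5 to 4.27 in Cre-. The groups of Zeb2 and Sp3 overlapped in TPM as well.

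**Figure D5:**
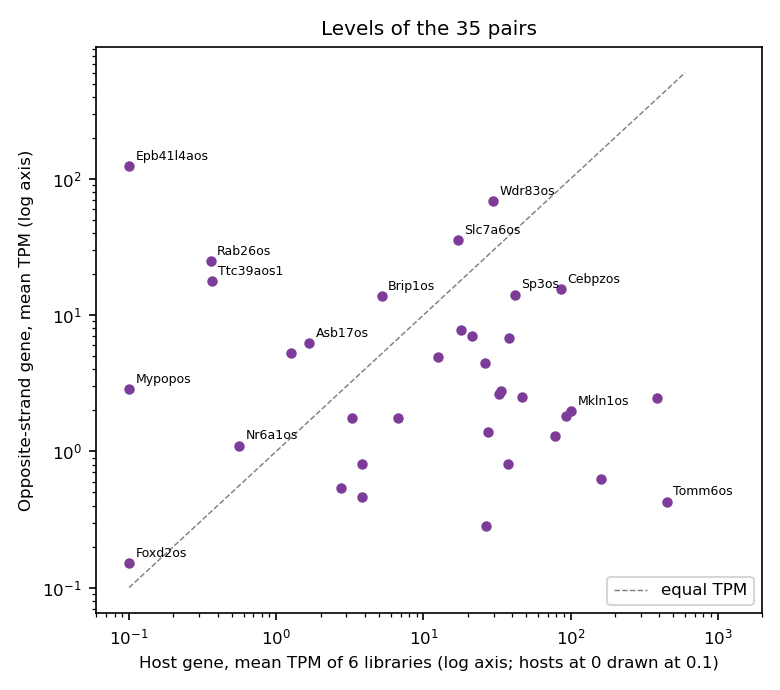
Mean TPM over the 6 libraries of each opposite-strand gene (vertical log axis) against that of its host (horizontal log axis, hosts at 0 drawn at 0.1), with a dashed line at equal levels. Of the 35 pairs, 11 lie above the line; Epb41l4aos, at 124 TPM over a host at 0, is the highest, and Tomm6os lies far below its host at 453 TPM.

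The ratio of a member to its host was taken in each library as the difference of log2(CPM + 0.1). The mean ratio was higher in Cre+ for 20 pairs and lower for 15, with a median change of 0.08. In 5 pairs the groups did not overlap, and these were the pairs of the 5 members whose own levels did not overlap. The ratio of Mkln1os to Mkln1 was 4.59 higher in Cre+ on the log2 scale, at -5.45 ± 1.32 in Cre+ and -10.04 ± 0.22 in Cre- (SD, n = 3 each). That of Asb17os was 4.06 higher, at 0.36 ± 2.3 in Cre+ and -3.69 ± 0.91 in Cre-, and that of Rab10os was 1.0 higher, at -3.0 ± 0.59 in Cre+ and -4.0 ± 0.28 in Cre-. The ratio of Nr6a1os changed by -3.95, at -4.78 ± 0.62 in Cre+ and -0.82 ± 2.43 in Cre-, and that of Cebpzos by -1.52, at -6.49 ± 0.24 in Cre+ and -4.96 ± 0.53 in Cre-. In an exact two-sided permutation test each of these 5 had p = 0.1, the smallest possible with 3 against 3 libraries, and 0.7 after Benjamini-Hochberg adjustment over the 35 pairs. Where a member is at 0 the ratio depends on the value added: with CPM + 0.5 the changes were 2.5 for Mkln1os, 1.71 for Asb17os and -1.68 for Nr6a1os. For Rab10os the change was 0.18 when deposited TPM replaced CPM. In TPM the groups overlapped, with Cre+ replicate 2 the highest library and the other Cre+ libraries below those of Cre-.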

How the data were processed

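RNA of 6 libraries, 3 Exosc3 fl/fl Cre+ and 3 Exosc3 fl/fl Cre-, was prepared with a stranded total RNA kit, per the labels. The authors processed reads with STAR 2.5.3a and RSEM 1.3.0 on GRCm39 (mm39), as listed in the submitters' processing notes. Neither the annotation release nor the strand setting is given in the sources used here. The deposited tables hold expected counts per gene, with TPM, FPKM and transcript lengths, per the file headers. Of the 55359 entries, 52081 matched a symbol by identifier. Expected counts, 2.64% of which were not whole, were rounded. TPM was used for levels between genes, and FPKM was not used.

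Genes were filtered by edgeR's filterByExpr with its defaults (13117 kept), scaled by TMM (factors 0.988 to 1.02) and tested with edgeR 4.0.16 (glmQLFit and glmQLFTest, R 4.3.3). P-values were adjusted over all genes by the Benjamini-Hochberg method, with a threshold of 0.05. DESeq2 1.42.0 and limma 3.58.1 (voom) were alternatives. CPM uses scaled library sizes. Standard errors derive from the F statistic. The common biological coefficient of variation was 85.4%, and pairs of libraries correlated at 0.778 to 0.832 across genes.

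The members and lists were chosen with earlier results of these data known. Members were named if among the 12 smallest p-values or the 8 highest mean TPM, or at 0 in 1 group. Others appear by role, with values. Arrangement and sequences come from GENCODE M21 on GRCm38 in place of the planned GRCm39 table, so no coordinates are given.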

Additional observations from a re-analysis of the deposited data

How the results depend on the processing

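The count of 16 genes passing in edgeR became 453 in DESeq2 (235 higher, 218 lower), 39 without the count filter (33 higher, 6 lower) and 6 with effective lengths as offsets, and 7 to 16 with 1 library left out (7 without Cre+ replicate 2, 9 without Cre+ replicate 1). The count of members passing was 0 in each alternative except DESeq2, with 2. The members' median log2 fold change of 0.52 was 0.76 with limma-voom and 0.18 with effective lengths. It was 0.12 to 0.43 with 1 library left out and the count filter rerun. The hosts' median of -0.03 was 0.02 without the filter and -0.14 to 0.05 with 1 library left out. Replicate numbers are not said to mark litters, and deviations of same-numbered libraries correlated at 0.026, 0.053 and 0.073. With the numbers as a replicate block, 56 genes passed (38 higher, 18 lower), 0 members passed, and the members' median was 1.01. Each library correlated best with its own number, a hint from the data only. Of 442 alternatives for 34 single genes, 27 reversed the sign of a value that had not passed in edgeR. With effective lengths these were Slc7a6 (1.25), Slc7a6os (-0.02), Cebpz (-0.36), Brip1 (0.04), Zfhx2 (-0.03) and Ttc39aos1 (-0.12). With limma-voom they were Asb17 (-1.54) and Lrrc75a (1.94), and with the replicate block Asb17 (-0.43) and Lrrc75a (0.20). With 1 library left out, the values ran from -0.52 to 0.70 for Nr6a1, -0.29 to 0.11 for Brip1, -1.75 to 0.56 for Lrrc75a, -0.12 to 0.15 for Epb41l4aos, -0.18 to 0.17 for Wdr83os, -0.25 to 2.21 for Rab26os and -0.03 to 1.29 for Sp3os. They ran from -0.41 to 10.73 for Ttc39aos1 and from -2.84 to 9.34 for Ttc39a. The cause of these changes was not tested. Of 144 alternatives for ratios to the host, 5 moved beyond the spread between libraries, 4 of them given with the ratios and the other Slc7a6os, at -0.93 with TPM and 0.84 with CPM. Raising the minimum to 100 counts left 33 members, and asking for 3 libraries left 31. The smallest library held 89629949 counts, and 59 of the members' 210 values were 0.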
